A study of Mus musculus with 3 samples.

Results

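TEC loci are gene models that the mouse annotation lists but marks as still awaiting an experimental test. A transcript with a poly(A) end was once sequenced from the place, most often without a splice junction, and whether it is a gene of its own has not been settled. Of the 3213 genes in GENCODE M21 whose transcripts all carry this class, 902 were chosen by their expected counts (estimated read counts that need not be whole), which had to reach 10 in each of the 3 libraries. They make up 28.1% of all TEC loci. The same limit was met by 12167 of the 55536 genes of all classes, or 21.9%. The expected counts therefore chose the loci, and the levels below describe them without a test.

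The RNA came from the chromatin fraction of bone marrow-derived macrophages of C57BL/6J mice, cells grown from marrow that serve as a model of tissue macrophages. All cells had received lipid A at 100 ng/ml for 50 min. Lipid A is the anchor of lipopolysaccharide in the bacterial membrane, sensed by Toll-like receptor 4. The ribosomal RNA-depleted libraries formed 1 group of 3 biological replicates, made from 1000, 250 and 500 ng of RNA for replicates 1, 2 and 3. They share a donor code in the labels, so the spread between them may be technical, and sex and age were not collected. With 1 group there was no condition to compare and no untreated level, and nothing below says that a locus was induced.

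RNA that stays with chromatin is rich in transcripts still being made, so introns that splicing would later remove are well covered. A TEC locus inside an intron and on the strand of its host gene overlaps the unspliced RNA of that host. Reads of the locus and of its host's unspliced RNA cannot be told apart in these tables. Whether the counting used strand was not given in the sources used here, so a locus lying opposite to another gene can also hold reads of that gene.

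Gene-level expected counts summed to between 10496703 (replicate 1) and 17687379 (replicate 2). The 10 macrophage markers on a fixed list (among them Csf1r, Adgre1 and Cd68) all reached the limit, with summed levels of 762.6, 730.9 and 760.0 TPM (a level corrected for length and scaled to a fixed sum) in replicates 1, 2 and 3. The 28 markers of 7 other cell types summed to 2.88 to 5.63 TPM. Of these, 2 reached the limit (Kdr and Kit) and 12 had no counts in any library. The genes Gm26917, CT010467.1 and Gm42418 on chromosome 17, which often collect ribosomal RNA reads and were picked after their values were seen, took 9.11% of the counts in replicate 1, 22.7% in replicate 2 and 21.7% in replicate 3.

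Of the 902 loci, 896 are a single exon and 6 have 2 or more. Their median length was 2281.5 bases (275 to 30942), against 1829 bases for the TEC loci that were not chosen. GC content had a median of 42.1% (quartiles 38.6% and 45.7%, over the 897 loci with a single transcript), and 42.2% in the other TEC loci. TEC models are spread unevenly over the chromosomes, and so are the members: 142 of 498 TEC loci on chromosome 5, 145 of 475 on chromosome 1, 71 of 322 on chromosome 3, 45 of 133 on chromosome 13, 35 of 88 on chromosome 2 and 1 of 15 on chromosome 11 were members.

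The annotated ends were searched for 2 motifs. A cleaved and polyadenylated RNA usually carries AATAAA or ATTAAA shortly before its end. One of the 2 motifs stood in the last 50 bases, on the strand of the locus, in 231 of 897 members (25.8%), in 679 of 2282 other TEC loci (29.8%) and in 28.6% of all 3179 TEC loci with 1 transcript. The last 60 bases of 4 of the most abundant loci are printed from the GENCODE transcripts, 5′ to 3′ on the strand of the locus (GRCm38), with any such motif in capitals. They are Gm38062 in Dock10 (minus strand, chr1:80728809-80728868), AC167363.2 opposite Cdkn1a (minus strand, chr17:29093416-29093475), Gm38357 in Noct (plus strand, chr3:51234321-51234380) and Gm37084 in Mapkapk2 (minus strand, chr1:131086252-131086311).
Gm38062: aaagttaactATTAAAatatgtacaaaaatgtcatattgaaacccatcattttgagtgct
AC167363.2: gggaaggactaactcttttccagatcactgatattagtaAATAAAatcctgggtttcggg
Gm38357: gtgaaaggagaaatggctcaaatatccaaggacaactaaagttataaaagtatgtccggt
Gm37084: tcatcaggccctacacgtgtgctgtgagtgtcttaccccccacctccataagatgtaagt
The motif begins 50 bases before the end of Gm38062 and 21 bases before the end of AC167363.2, and neither motif occurs in the last 60 bases of Gm38357 and Gm37084. Their absence says only that these letters are not in this window. By position, the motif was found in 126 of 606 members inside a host gene on its strand (20.8%), in 29 of 66 inside a gene on the opposite strand (43.9%), in 24 of 47 within 5 kb of a gene (51.1%), in 8 of 36 farther away (22.2%) and in 44 of 142 with exonic overlap. Other TEC loci were not split by position, so these shares are not read as traits of the chosen loci. Members and all TEC loci differ in position, as given below, and its part in the 25.8% and 29.8% was not tested. A run of 6 A in the last 20 bases was found in 4.91% of members and 4.95% of other TEC loci.

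Most of the 902 loci sat inside other genes. Of all members, 607 (67.3%) lay wholly inside a protein-coding or long noncoding gene on its strand, sharing no exonic base with any gene outside the TEC class. A further 144 shared bases with an exon of such a gene, 68 lay inside a gene on the opposite strand, 47 lay outside genes but within 5 kb of one, and 36 lay farther away. Among all 3213 TEC loci the same classes held 1563, 419, 268, 345 and 618 loci. The share that reached the limit was 38.8% inside a host on its strand, 34.4% with exonic overlap, 25.4% on the opposite strand, 13.6% within 5 kb and 5.83% farther away, beside 21.9% of all genes.

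Detection of a locus went with detection of its host. Where the host reached 10 counts in each library, 591 of 863 TEC loci on its strand (68.5%) did too. Where the host did not, 16 of 700 loci (2.29%) reached the limit. On the opposite strand the corresponding shares were 65 of 126 (51.6%) and 3 of 142 (2.11%). These shares rest on the counts that chose the members and are given as a description.

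**Figure D1:**
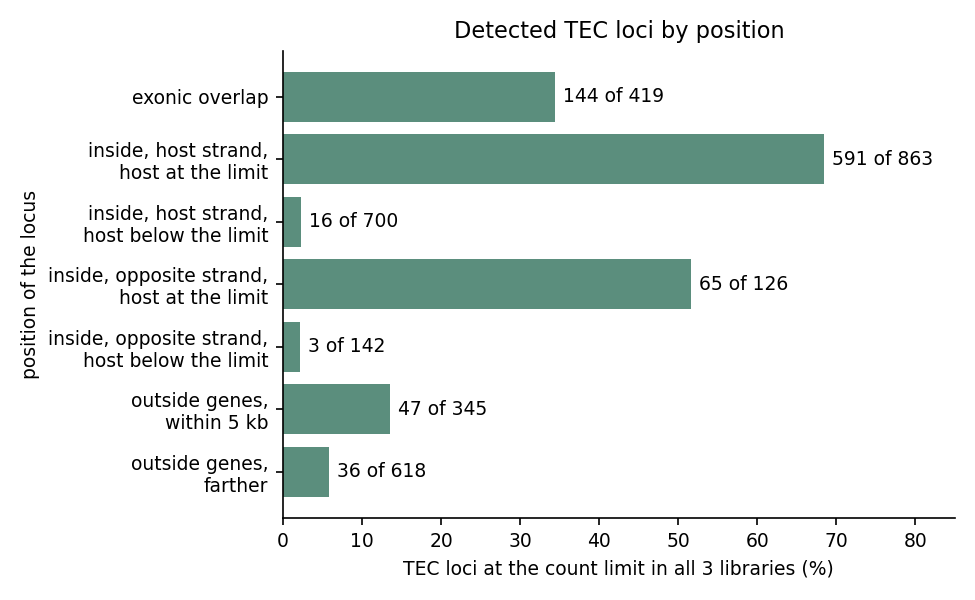
Share of TEC loci with 10 or more expected counts in each of the 3 libraries (x axis, %), by position of the locus and, for loci inside a gene, by whether that host met the same limit. Numbers beside the bars are members of all TEC loci; loci in detected hosts stand at 68.5% (host strand) and 51.6% (opposite strand), those in undetected hosts at 2.29% and 2.11%.

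Levels spanned a wide range. The mean TPM over the 3 libraries ran from 0.207 to 281.3, with a median of 2.99 (quartiles 1.15 and 6.99), against a median of 4.43 for all 12167 genes at the limit. At 100 TPM or more stood 8 members, at 10 TPM or more 162, and 185 were under 1 TPM. The median count per locus was 96.0, 83.0 and 79.0 in replicates 1, 2 and 3. Median TPM of the members was 4.21, 1.89 and 2.64 in the same order. The order of libraries for a single locus on TPM includes this general difference. Counts were concentrated: the 10 loci with the most counts held 24.6% of all member counts and the top 100 held 69.5%. Nearest to the limit from above were 7330423F06Rik (13, 10 and 15 counts), 9430031K09Rik (15, 15 and 10) and 9530086P17Rik (15, 19 and 10). Just below it were Gm42521 (17.21, 30.25 and 9.93), Gm43173 (16.82, 9.98 and 9.74) and 1110025M09Rik (10, 10 and 9).

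The most abundant locus was Gm38357 (chr3:51231917-51234380, plus strand, 1 exon of 2464 bases), in an intron of Noct, which encodes nocturnin, a rhythmically expressed phosphatase. It measured 438.8, 169.6 and 235.4 TPM in replicates 1, 2 and 3 (mean 281.3 ± 140.3 SD, n = 3), from 13073, 9699 and 9031 counts. Noct itself stood at 292.5, 162.8 and 215.8 TPM. The locus was above its host in every library, and both were highest in replicate 1 and lowest in replicate 2.

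Dock10, an activator of the small GTPases that shape the actin skeleton, held 2 of the 4 most abundant loci. A630081D01Rik (chr1:80747222-80749054, minus strand) measured 425.6, 108.8 and 170.4 TPM (234.9 ± 168.0), and Gm38062 (chr1:80728809-80730664) measured 300.6, 98.28 and 157.8 TPM (185.5 ± 104.0). The host gave 215.5, 96.5 and 144.9 TPM. In each library the order from high to low was A630081D01Rik, Gm38062 and then Dock10, although in replicate 2 the last pair hardly differed.

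Gm42793 (chr5:104435121-104436372, plus strand) starts 3 bases after the start of Spp1, the gene of the secreted phosphoprotein osteopontin, and shares 309 of its 1252 bases with Spp1 exons. Its 289.4, 153.7 and 205.8 TPM were close to the 349.9, 154.8 and 216.1 TPM of Spp1, and the part of spliced Spp1 RNA in its reads was not tested.

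Gm37084 (chr1:131086252-131092149, minus strand, 5898 bases) lies in Mapkapk2, the kinase downstream of p38 that stabilises cytokine mRNAs. It had the highest mean count of all members, with 15339, 14484 and 18468 counts, and 204.4, 99.61 and 189.3 TPM. Mapkapk2 measured 143.7, 77.5 and 180.2 TPM. Replicate 2 was the lowest for both locus and host.

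AC167363.2 (chr17:29093416-29094461, minus strand, 1046 bases) lies opposite Cdkn1a, the gene of the cell-cycle inhibitor p21, and shares 273 bases with its exons. It measured 105.0, 182.8 and 180.2 TPM, and was the only one of the 10 loci with the highest TPM whose lowest library was replicate 1. Cdkn1a gave 129.1, 119.2 and 147.4 TPM, with its lowest TPM in replicate 2. Both were also taken on CPM (counts brought to 1 common library total) after TMM scaling, a method that sets the libraries to a common level over most genes. There Cdkn1a gave 189.7, 219.9 and 236.1 CPM and AC167363.2 gave 95.7, 232.6 and 181.5 CPM, both lowest in replicate 1. Since the strand setting is unknown, the part of Cdkn1a reads in the values of AC167363.2 was not tested.

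A pair of loci on chromosome 14 cannot be separated. Gm20236 (chr14:69277601-69282140) in Slc25a37, which encodes the mitochondrial iron importer mitoferrin-1, and Gm37094 (chr14:69495851-69500390) in the long noncoding gene Gm16867 have the same 4540-base sequence. Both were listed at 151.0, 55.94 and 118.6 TPM, from 8628, 6182 and 8792 counts each. Gm37513 and Gm38378, of 2268 bases, are a second pair with 1 sequence and equal counts. Gm37847 and Gm31748 on chromosome 14, both of 1497 bases, were also listed at the same 17.27, 10.1 and 23.54 TPM. All 31-base stretches of these 2 loci occur in other genes too.

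Itpkb, a kinase that phosphorylates inositol trisphosphate, held 2 of the named loci. Gm37390 (chr1:180372669-180373540) gave 127.6, 81.12 and 85.04 TPM, and Gm37033 (chr1:180357649-180364998) gave 90.2, 59.72 and 68.28. On CPM after TMM scaling, Gm37033 measured 696.3, 669.1 and 605.8, so it differed little between libraries. Gm45223 (chr7:90132492-90137629) in Picalm, a clathrin assembly protein, was the steadiest of the named loci at 400.8, 401.7 and 415.3 CPM. Gm47603 (chr13:63253024-63255564), opposite 2010111I01Rik, an aminopeptidase gene, gave 117.8, 69.21 and 83.35 TPM and had no 31-base stretch in common with another gene.

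**Figure D2:**
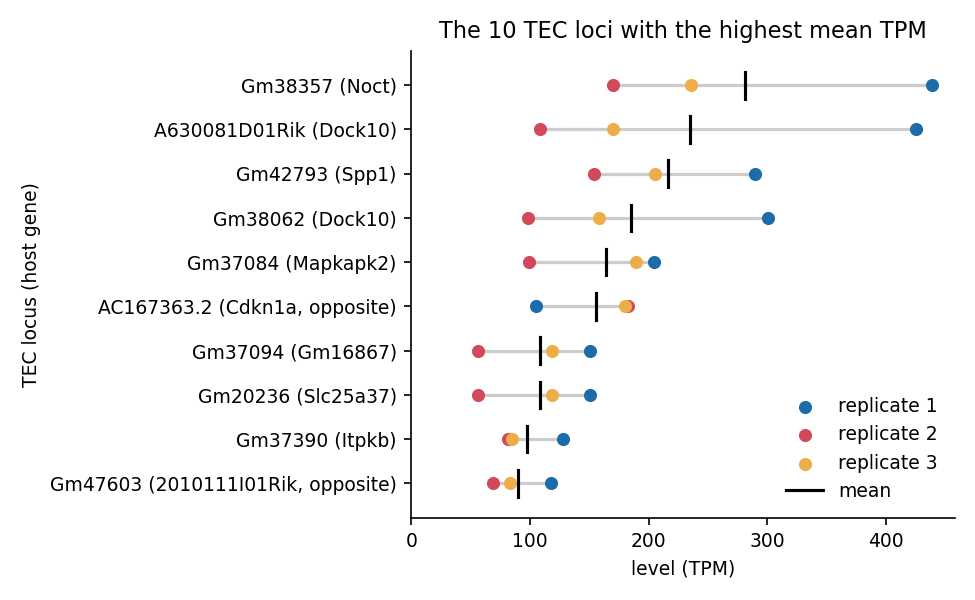
TPM (x axis) of the 10 TEC loci with the highest mean TPM, with the gene each lies in ("opposite" where that gene is on the other strand); coloured points are the 3 libraries and the black bar is their mean. On TPM, replicate 1 is the highest of the 3 for 9 of these loci and the lowest for AC167363.2, at 105.0 TPM. On CPM after TMM scaling, Gm37084 was highest in replicate 3 instead (1257.5, 888.2 and 1336.4 CPM in replicates 1, 2 and 3).

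TEC loci were looked up at listed genes of the lipopolysaccharide response and of macrophage identity. Members were 28.1% of all TEC loci, but 68.5% of those on the strand of a host that reached the limit and 2.29% where the host did not. The counts per list are small and were not tested against these shares. Of 42 genes on an NF-kB primary-response list, 2 held or neighboured a TEC locus, and both loci were members. Of 25 TLR4 signalling genes 1 held 2 loci, both members. Of 25 macrophage identity genes 1 held 4 loci, all members. The list of 32 interferon genes had 2 loci, of which 1 was a member, the list of 29 immediate early genes had 2 loci and no member, and the 18 late-response genes had none.

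Gm43430 (chr3:135650670-135654566, minus strand) lies 37.0 kb into Nfkb1, which encodes the p105 precursor of the NF-kB subunit p50. It gave 117.4, 45.8 and 76.84 TPM (80.0 ± 35.9, n = 3), beside 323.2, 233.4 and 248.9 TPM for Nfkb1. Its 5713, 4305 and 4846 counts placed it among the 10 members with the most counts. Gm37498 in Slc7a11, the cystine transporter, gave 16.16, 8.39 and 10.53 TPM beside 55.5, 27.5 and 41.4 for the host.

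In Irak2, a kinase of the TLR4 pathway, Gm43912 gave 29.57, 19.05 and 24.76 TPM. Gm43963 opposite Irak2, with 196 bases of exonic overlap, gave 24.79, 9.79 and 15.49. Irak2 itself stood at 138.7, 119.0 and 141.8 TPM. Gm49730 shares 110 bases with exons of Parp14, an ADP-ribosyltransferase induced by interferon, and gave 76.59, 20.6 and 43.45 TPM beside 459.6, 176.8 and 324.1 for Parp14. Locus and gene had the same order of libraries there.

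The 4 loci at Fli1, an ETS transcription factor of blood cells, differed little between libraries. Gm37082, Gm38346, Gm37474 and Gm38292 had mean levels of 5.8, 5.78, 3.26 and 2.09 TPM, and Fli1 gave 20.7, 19.6 and 25.4 TPM. Gm38346 also shares 88 bases with exons of Gm27201. Their log2 ranges between libraries were 0.16, 0.3, 0.31 and 0.35, all below the median of the 902 loci.

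Levels of locus and host were compared on FPKM, a level per length, with 0.1 added before taking log2. The value of a host covers its exons, and where several genes enclosed a locus the one with the highest level was its host. Over the 607 loci on the host strand, in 423 hosts, the level of a locus rose with that of its host (Pearson r = 0.61, Spearman rho = 0.6 across loci). The r within single libraries was 0.63, 0.57 and 0.6. For the 68 loci on the opposite strand r was 0.51. Loci that share a host are not independent, and locus and host share library and depth, so these are descriptions. The locus was below its host in 533 of 607 cases, with medians of 4.23 and 23.3 FPKM and a median log2 difference of -2.16 (quartiles -3.18 and -0.84). On the opposite strand the median log2 difference was -2.17. In 74 of the 607 cases the locus was above its host.

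Loci near the start of their host stood closest to its level. The median log2 difference between locus and host was -1.04 for the 115 loci within 10 kb of the host's start, -1.68 for 240 loci from 10 to 50 kb, -2.62 for 155 loci from 50 to 150 kb and -3.07 for 97 loci beyond. The rank correlation with distance was -0.41 over the 607 loci. These values pool loci of different hosts, whose median length was 115.2 kb, so loci far from a start lie only in long hosts. The part of host length and host level in this trend was not tested.

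Some hosts with several loci show the decline inside single genes. Camk2d and Cers6, given first, were the 2 with a rank correlation of -1 among the 20 hosts compared below. Camk2d, a calcium and calmodulin-dependent kinase, held 7 members along its 250.0 kb. From Gm43011, 3.73 kb from the start, to Gm42514, 149.8 kb from it, the mean FPKM of the 7 fell without exception: 89.3, 70.7, 45.6, 35.3, 13.1, 7.53 and 6.27. The first locus was 14.5, 15.4 and 12.9 times the last in replicates 1, 2 and 3, so the slope was nearly the same in each.

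Cers6, a ceramide synthase, held 6 members between 29.9 and 156.7 kb from its start. Their mean FPKM in order were 107.1 (Gm37159), 81.6, 67.6, 35.3 (Gm37747), 30.2 and 16.4 (Gm38377). The first was 5.01 times the last in replicate 1, 9.44 times in replicate 2 and 8.86 times in replicate 3, so the decline was least steep in replicate 1. Dock10 has too few loci for the comparison of hosts below. Its 3 members at 9.47, 27.9 and 89.0 kb gave 294.1, 232.5 and 36.6 FPKM. There the first was 7.55, 13.0 and 7.11 times the last in replicates 1, 2 and 3, and replicate 2 had the steepest fall.

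The decline was not general. The comparison took the 20 hosts with at least 4 TEC loci inside an intron on their strand and at least 3 members among them. The rank correlation of level with distance was below 0 in 12 and above 0 in 8, with a median of -0.23. Each value rests on few loci, and the sign was not stable in every host. Prkcb had 0.6, but -0.1 and -0.3 in replicates 2 and 3 alone. Ncoa2 had -0.26, but 0.26 in the second quantification described below, where 11 hosts were below 0. In Tcf12, a basic helix-loop-helix factor, the first of 7 members (Gm37137, 68.6 kb in) had 0.45 FPKM, Gm37879 at 170.3 kb had 7.54 and Gm38057 at 256.7 kb had 3.85. In 2010111I01Rik, Gm47584 at 45.1 kb had 0.11 FPKM and was no member, whereas Gm47586 at 279.3 kb had 82.2. Which start sites of these hosts were in use was not tested.

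**Figure D3:**
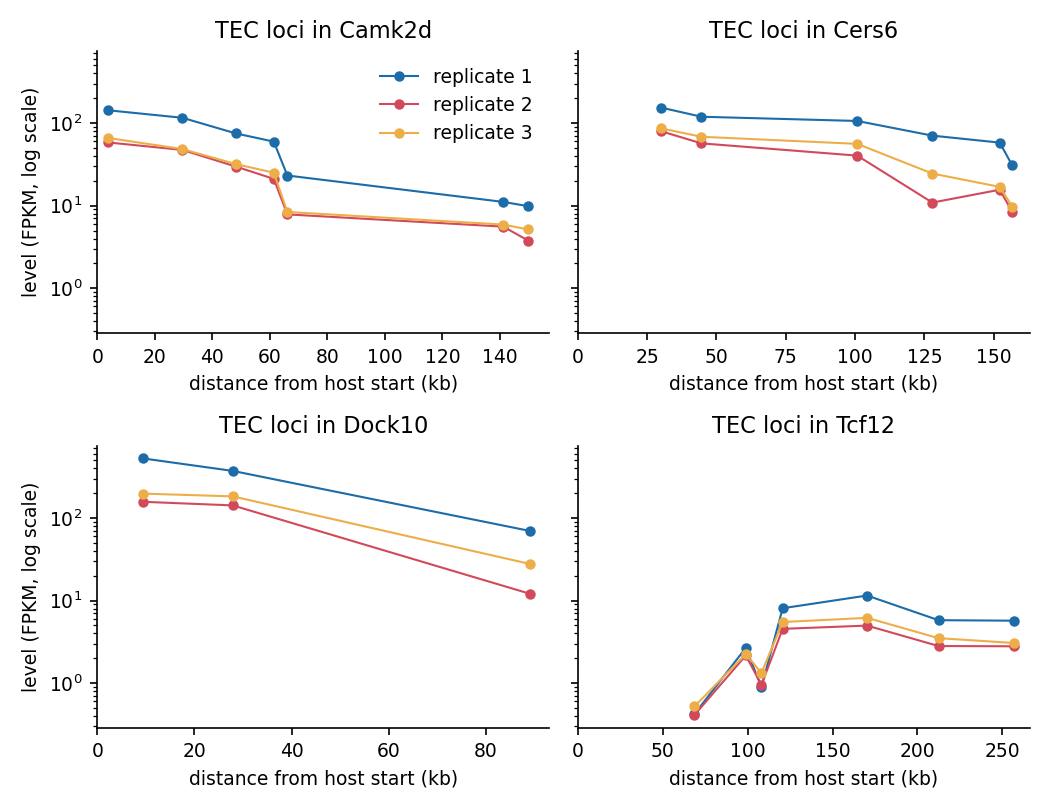
FPKM of each TEC locus (y axis, log scale) against its distance from the annotated start of the host gene (x axis, kb) in Camk2d, Cers6, Dock10 and Tcf12; points of 1 colour are 1 library. Camk2d falls from a mean of 89.3 to 6.27 FPKM along its 7 loci, whereas Tcf12 starts at 0.45 FPKM and has its highest locus at 170.3 kb.

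Outside genes, the members lay mostly downstream of a neighbour on the same strand. Within 5 kb, 23 of 47 members were downstream on the same strand (of 117 TEC loci there), 13 upstream on the opposite strand (of 124), 7 upstream on the same strand (of 58) and 4 downstream on the opposite strand (of 46). Of the 36 members farther away, 25 had their nearest gene upstream of them on the same strand (of 192 TEC loci), and for 21 of these it lay within 20 kb. Named after their values were seen, Gm43924 (chr6:15811323-15813058) lay 9154 bases past the end of Mdfic and gave 15.84, 3.28 and 6.01 TPM, and Gm37697 (chr2:14345677-14347520) lay 13620 bases past the end of Mrc1, the macrophage mannose receptor, and gave 12.99, 3.18 and 5.85 TPM. Gm44013 (chr6:140620162-140622423), 240 bases upstream of Aebp2 and pointing away from it, gave 12.53, 3.35 and 5.91 TPM. All of these were highest in replicate 1 and lowest in replicate 2 on TPM. Gm37352, upstream of the noncoding gene Gm26887, gave 19.64, 16.83 and 20.76 TPM. After TMM scaling it gave 42.0, 51.5 and 50.3 CPM, lowest in replicate 1.

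The libraries differed in how much of these loci they held. The 902 loci took 3.38% of all expected counts in replicate 1, 1.73% in replicate 2 and 2.01% in replicate 3, and their median level was 4.21, 1.89 and 2.64 TPM. After TMM scaling (0.5 added to each rounded count), the median shift from the mean of the 3 libraries was 0.38 on the log2 scale in replicate 1, -0.26 in replicate 2 and -0.11 in replicate 3. Over all 12167 genes at the limit these medians were 0, 0.01 and 0.02, and over the 9665 protein-coding genes -0.07, 0.05 and 0.04. Replicate 1 was the highest library for 708 of the 902 loci and for 4887 of the 12167 genes at the limit. The same held for 204 of 332 processed pseudogenes, 392 of 593 other long noncoding genes and 273 of 465 antisense genes. Among protein-coding genes it held for 3213 of 9665.

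The median shift of the other classes without a protein product had the same sign in each library. In replicate 1 it was 0.26 for 332 processed pseudogenes, 0.25 for 593 other long noncoding genes and 0.2 for 465 antisense genes. With each library scaled to its total alone, which moves the median of all genes by 0.22 in replicate 1, the shift of the TEC loci became 0.59. Because a limit in each library removes loci that are low in 1 of them, the shift was also taken over the 981 TEC loci with a mean of 10 counts or more, where it was 0.38.

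**Figure D4:**
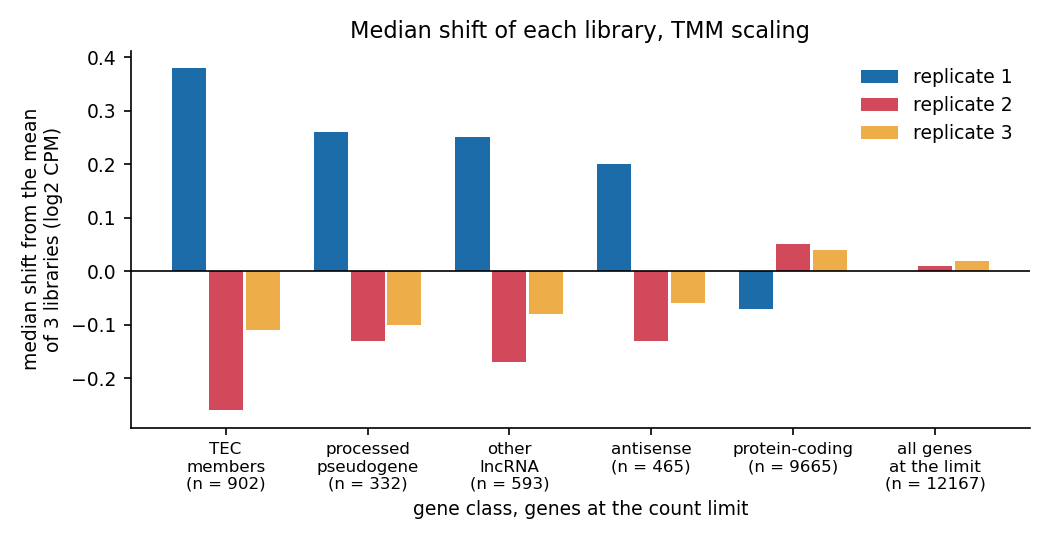
Median shift of each library from the mean of the 3 libraries (y axis, log2 CPM after TMM scaling) for TEC loci and 5 other sets of genes at the same count limit; each bar is 1 library and n is the number of genes. TEC loci stand at 0.38, -0.26 and -0.11, and protein-coding genes at -0.07, 0.05 and 0.04.

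In replicate 1, 148 of the 902 loci were at least 2-fold above the mean of the other 2 libraries, or 16.4%, against 4.64% of all genes at the limit. The share was 17.8% of processed pseudogenes, 12.3% of other long noncoding genes, 8.82% of antisense genes and 2.19% of protein-coding genes, so it was not particular to TEC loci. At least 2-fold lower there were 3 loci, against 5.09% of all genes. In replicate 2, 67 of the 902 loci were lower, against 2.86% of all genes at the limit, and 1 was higher, against 1.26%. Lower there were also 28 of 332 processed pseudogenes, 31 of 593 other long noncoding, 27 of 465 antisense and 171 of 9665 protein-coding genes. In replicate 3, 15 of the 902 loci were lower, against 0.888% of all genes, and 0 were higher, against 0.666%. These are differences between single libraries with no replicate, so no p-value is given. Replicate 1 also had the most RNA put into the library, the smallest share of counts in ribosomal-like genes and the smallest total, and their part in the shift was not tested.

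The median log2 range over the 3 libraries was 0.77 for the 902 loci and 0.58 for all genes at the limit. Over 2 libraries, where a range is smaller by construction, it was 0.29 and 0.23 without replicate 1, 0.53 and 0.39 without replicate 2, and 0.66 and 0.45 without replicate 3. The widest range was that of Gm44183, opposite Nek6, a mitotic kinase, at 32.3, 3.77 and 17.4 CPM. All of its 31-base stretches occur in other genes too, so its counts depend on how shared reads were divided. Gm48771 gave 10.5, 1.44 and 5.54 CPM, Gm45205 at Pycard, the inflammasome adaptor, 4.88, 0.705 and 1.56, and Gm42963 5.45, 0.889 and 1.56. Gm37747 in Cers6, with 2854, 730 and 1369 counts and no shared stretch, gave 234.0, 44.8 and 99.1 CPM. Its host gave 205.7, 140.1 and 186.5 CPM, a far narrower range in the same order.

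The exceptions that were low in replicate 1, named after their values were seen, were AC167363.2 (95.7, 232.6 and 181.5 CPM), Gm42934 (1.93, 4.81 and 4.16) and Gm37415 (0.943, 1.93 and 2.21). All 3 overlap an exon of another gene. The 1 locus at least 2-fold higher in replicate 2 was Gm45481, opposite Irf2, at 2.83, 6.96 and 3.8 CPM.

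On the host strand the loci were shifted more than the genes around them. In replicate 1 the median shift was 0.39 for the 607 loci on the host strand and -0.03 for their hosts, and the locus was shifted above its host in 521 of 607 cases (median difference 0.36). In replicate 2 it was shifted below its host in 490 of 607. Shifts of locus and host went together weakly across loci, with r of 0.27, 0.34 and 0.19 in replicates 1, 2 and 3. On the opposite strand the median shift in replicate 1 was 0.31 for the loci and 0.11 for their hosts, and the locus was shifted above its host in 52 of 68 cases, with r of 0.48, 0.53 and 0.12 in replicates 1, 2 and 3. The shift of the locus in replicate 1 had a rank correlation of 0.0 with distance from the host's start and a Pearson r of -0.29 with GC content (897 loci). The 225 loci with the lowest GC content (28.7% to 38.6%) had a median shift of 0.47 in replicate 1, and the 224 loci with the highest (45.8% to 67.8%) had 0.25. The part of GC content in the shift was not tested.

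The deposited files hold a second quantification of the same libraries, in which 901 of the 902 loci also had 10 or more estimated counts in each library. By that measure 1918 TEC loci would have passed. With 0.1 TPM added, 333 members (of 902) were over 1.5-fold higher on mean TPM in the second quantification, against 54.5% of all genes at the limit, and 0 were over 1.5-fold lower, against 1.02%. The median log2 ratio was 0.34 for members and 0.65 for all genes. Across the 902 loci the log2 levels had r = 0.82 between the 2 quantifications. The loci named for their level were close in both: Gm38357 had 281.3 and 291.2 TPM, and A630081D01Rik 234.9 and 241.8.

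The gap was set beside the sequence shared with other genes. For each locus the share of its 31-base stretches that also occur in a transcript of another gene, on either strand, was counted. The median log2 ratio was 0.15 in 235 loci with none, 0.46 in 517 loci with under 10%, 0.53 in 108 loci with 10% to 50% and 1.48 in 42 loci with 50% or more. Over 10-fold higher in the second quantification were 30 members, of which 14 shared 50% or more. The share of all genes past 10-fold was not taken, so these 30 are not read as particular to TEC loci. Of the 333 that were over 1.5-fold higher, 26 shared 50% or more and 31 shared none, and the part of shared sequence in the gap was not tested. By position the median ratio was 1.57 for loci farther from genes, 0.78 within 5 kb, 0.34 inside a host on its strand, 0.24 with exonic overlap and 0.22 on the opposite strand. In the first quantification 781 members had a posterior standard deviation of 0 in every library, so the first method carried no estimated uncertainty in assigning their reads.

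The largest gaps, named after their values were seen, were those of Gm48271 (0.293 and 157.9 TPM), Gm47164 (1.62 and 608.5), Gm48309 (0.953 and 349.3) and Gm42860 (0.253 and 53.2). Gm47164 shares 96.9% of its stretches with 740 other genes. The stretch of it that is found in the most genes is printed below in capitals with its surroundings (minus strand, chr10:103208436-103208495, GRCm38), as an example of a shared stretch: these 31 bases occur in transcripts of 123 other genes.
Gm47164: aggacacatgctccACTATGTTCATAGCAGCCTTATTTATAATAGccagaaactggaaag
For such loci the reads of the locus and of its copies cannot be told apart by these tables.

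**Figure D5:**
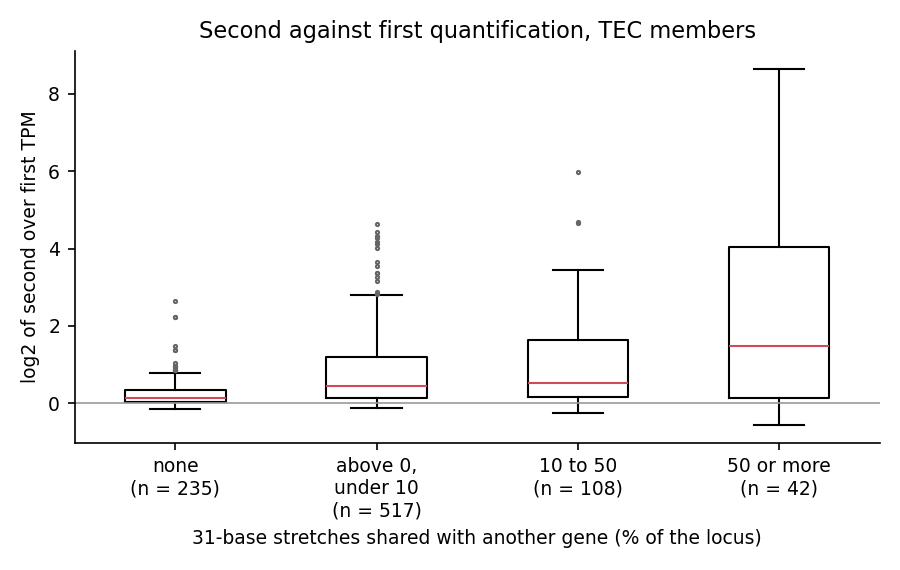
Log2 of the mean TPM in the second over the first quantification (y axis, 0.1 TPM added) for the 902 TEC loci, by the percentage of 31-base stretches shared with another gene (x axis). Boxes are quartiles with the median in red, whiskers reach the last locus within 1.5 box lengths and points are loci beyond; the medians are 0.15, 0.46, 0.53 and 1.48.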

How the data were processed

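The gene tables deposited by the authors held expected counts, TPM and FPKM per gene, with a posterior mean count and a score for its uncertainty (posterior standard deviation), per the file headers. The deposited tables of the second quantification listed transcripts with estimated counts and with TPM values, per the file headers, and both were summed to genes. Build mm10 and GENCODE M21 were named in the deposited notes; for aligner, tools and strand setting the entry is "not given in the sources used here". The members and lists were chosen with earlier results of these data known.

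Rows that named no mouse gene (1.28%, 0.427% and 0.383% of expected counts in replicates 1, 2 and 3) were left out. Positions came from the GENCODE M21 annotation (GRCm38). A host is a protein-coding or long noncoding gene around the whole locus, the one with the highest level where several are. Expected counts were rounded for TMM scaling in edgeR 4.0.16 (R 4.3.3), with 0.5 added before log2 CPM. This step was tested on simulated data with known changes in single genes. The simulation held no shift of a whole gene class and no difference in ribosomal-like share, so it does not bear on the shift of the TEC loci. Each library was set against the mean of the other 2 on the log2 scale. Reads have no molecular identifiers, and at 0 counts up to 3 remain possible, for counting error only. Loci named were the 10 highest by mean TPM and by mean count, the 5 with the widest log2 range, 3 on each side of the limit, those at listed genes, and others as stated. DESeq2 1.42.0 gave alternative size factors. Differences have no test, since there is 1 group.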

Additional observations from a re-analysis of the deposited data

How the results depend on the processing

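No paired analysis was possible because there is 1 group. Of 99 alternative values for 22 results, 69 stayed close to the reported one (within 1.5 times for a count and within the spread between libraries for a value), 30 moved and 0 changed sign. Requiring 10 estimated counts in the second quantification gave 1918 loci in place of 902, and the median level of the members became 5.05 TPM; leaving out each replicate gave 923 to 930 loci and 2.32 to 3.48 TPM. With library totals, the loci at least 2-fold higher and lower were 347 and 0 in replicate 1, 0 and 118 in replicate 2, and 28 lower in replicate 3, and the median log2 range was 1.06. Over all 12167 genes at the limit, that scaling gave 1513 higher (12.4%) and 180 lower in replicate 1. It gave 72 higher and 597 lower in replicate 2, 212 lower in replicate 3, and a median range of 0.63. For the settings that follow no share over all genes is given, so their counts are not read as particular to TEC loci. With the second quantification (TMM), 68 loci were higher in replicate 1, 36 lower in replicate 2, and 1 higher and 8 lower in replicate 3. With a mean count of at least 50, which leaves 606 loci, 92 were higher in replicate 1, 40 lower in replicate 2 and 7 lower in replicate 3. With 5 counts added, 0 were higher in replicate 2. Against each other library alone, replicate 1 had 105 to 202 loci higher and 2 to 5 lower, replicate 2 had 5 to 7 higher and 23 to 202 lower, and replicate 3 had 2 to 23 higher and 7 to 105 lower; the median log2 range of 2 libraries was 0.29 to 0.66. Among members that share under 10% of their stretches, an alternative chosen after seeing the data, 0 were lower in replicate 1, 129 higher in replicate 1 and 53 lower in replicate 2. In the second quantification the correlation of locus and host level was 0.53 on the host strand and 0.34 on the opposite strand. The causes were not tested. The planned search for a run of A after the annotated end was not run, because no genome sequence was used here, nor was the correlation of locus and host level without loci of exonic overlap, since these were already left out. At a median of 79.0 to 96.0 counts per locus, counting error alone limits what can be said of single low loci.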
